A study of Mus musculus with 6 samples.

Results

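Egr1, Egr2, Egr3, Nab1, Nab2, Srf, Ier2, Ier3 and Ier5 are 9 genes of the serum response, taken by symbol from a table of 21878 rows. All 9 had a row. They were chosen by name with the values under knockdown in view, since Egr1 is among the genes that stood highest there against control. Their levels under knockdown are therefore given as a description with no test, and tests of these genes are confined to overexpression against control. RNA was sequenced from Neuro-2a, a mouse neuroblastoma cell line, in 3 groups of 2 libraries. One group overexpressed lncPim1, a long noncoding RNA, the next had lncPim1 lowered by RNA interference, and the control group is labelled wild type. The labels name no vector, scrambled RNA, time point or added stimulus for any group, nor do they tell whether both libraries of a group are from different cultures. The p-values below therefore rest on library-to-library spread that may be technical. lncPim1 itself was not analysed here, so the group labels were not checked on it.

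Of 11 markers of sympathetic neuroblastoma cells, 10 were above 1 FPKM in all 6 libraries, and the exception was Dbh, which encodes dopamine beta-hydroxylase. FPKM is a fragment count divided by transcript length and by the total of the library. Summed FPKM of the neuroblastoma markers was 1029 to 1121 under overexpression, 871 to 889 under knockdown and 1174 to 1199 in control cells. Not every marker followed that sum, as Th had 11.9 and 9.32 FPKM under knockdown and 4.99 and 4.67 in control cells. Markers of other cell types were low, with 9 macrophage genes summing to 4.49 to 7.19 FPKM in any library, the larger part of it Lyz2, and Ptprc at 0.0188 FPKM or less. Among the macrophage genes, Fcer1g had 0.331 and 0 FPKM in overexpressing cells and 0.554 and 1.04 in knockdown cells, and was listed at 0 in both control libraries. Tyrobp had 0.126 and 0.145 FPKM under overexpression, 0.643 and 0.350 under knockdown, and 0.123 and 0 in control cells. Fcer1g and Tyrobp encode immune receptor adaptors, and their part in the results was not tested. Lyz2 went the other way, with 5.10 and 4.60 FPKM under knockdown and 6.96 and 6.39 in control cells. The sum of the 9 macrophage genes was 6.49 and 6.20 FPKM under knockdown and 7.19 and 6.58 in control cells, so the list as a whole did not rise. A list of 16 digestive-tract genes summed to 31.4 and 44.0 FPKM under overexpression, 4.70 and 5.09 under knockdown, and 38.9 and 31.9 in control cells. Most of the knockdown sum was Vil1, with 4.08 and 4.51 FPKM there and 5.03 and 5.46 in control cells. Others, such as Reg1 (4.60 and 3.80 FPKM in control cells) and Prap1 (3.32 and 2.39), were listed at 0 in both knockdown libraries. That list moved with knockdown, as most results below do, and its part in them was not tested. In bulk RNA, fewer cells of a type and less RNA per cell cannot be told apart.

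Immediate early genes are switched on within minutes of a growth factor or stress signal, without new protein synthesis. The ERK kinase cascade phosphorylates ETS-family cofactors that sit beside serum response factor (SRF) on CArG boxes, and SRF with another class of cofactor, the MRTF proteins, drives actin cytoskeleton genes. EGR1, EGR2 and EGR3 are zinc finger factors made in this first wave, and NAB1 and NAB2 bind the EGR proteins and repress their activity. In neuronal cells EGR1 is known as a marker of recent stimulation and takes part in neurite outgrowth.

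The letters upstream of Srf and Egr2 are shown because they hold the sites through which SRF is known to act, and those of Nab1 because they hold matches to the motif that EGR proteins bind. Promoter windows from RefSeq on GRCm38.p6, 250 bases before to 50 after each start site, were matched for 6 of the 9 genes; Egr1, Egr3 and Ier2 had no entry. Capitals mark the CArG box in its strict form, the ETS core CCGGAA and the EGR motif GCGNGGGCG, each searched on both strands. The Egr2 stretches precede the second and the third of its 5 start sites (67537566 and 67537869), inside an intron of the GENCODE transcripts that begin further upstream. The Nab1 stretch lies in the first exon of a GENCODE transcript of that gene.
Srf, chr17:46556177-46556297, minus strand: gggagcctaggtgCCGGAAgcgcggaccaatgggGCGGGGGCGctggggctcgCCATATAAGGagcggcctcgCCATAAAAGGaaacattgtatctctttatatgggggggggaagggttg
Egr2, chr10:67537426-67537556, plus strand: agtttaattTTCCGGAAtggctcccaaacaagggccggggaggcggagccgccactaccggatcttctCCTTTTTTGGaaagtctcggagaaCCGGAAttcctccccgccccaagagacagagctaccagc
Egr2, chr10:67537787-67537816, plus strand: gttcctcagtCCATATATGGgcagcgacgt
Nab1, chr1:52500540-52500566, minus strand: ctcggccgcGCGTGGGCGggagccgga

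The Srf window held 2 CArG boxes, an EGR motif and an ETS core in the 121 bases printed. Egr2 had 2 distinct CArG boxes over 4 of its 5 start sites. In the first Egr2 stretch the leftmost capitals are ETS cores on opposite strands that overlap, and a further core follows the box. A strict CArG box occurred in 1.63% of all 32851 promoter windows of this length, the ETS core in 14.9% and the EGR motif in 5.55%. The Nab1 window held 3 EGR motifs, of which 1 is printed. The windows of Nab2, Ier3 and Ier5 held none of these motifs, which says only that the letters are not in those windows. The TATA box TATAAA and the CRE core TGACG were searched as well and were found in 13.6% and 20.8% of windows. Among the 6 matched genes the TATA box was found at Srf, on the strand opposite to the gene, and the CRE core at Egr2, Nab1 and Srf.

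**Figure D1:**
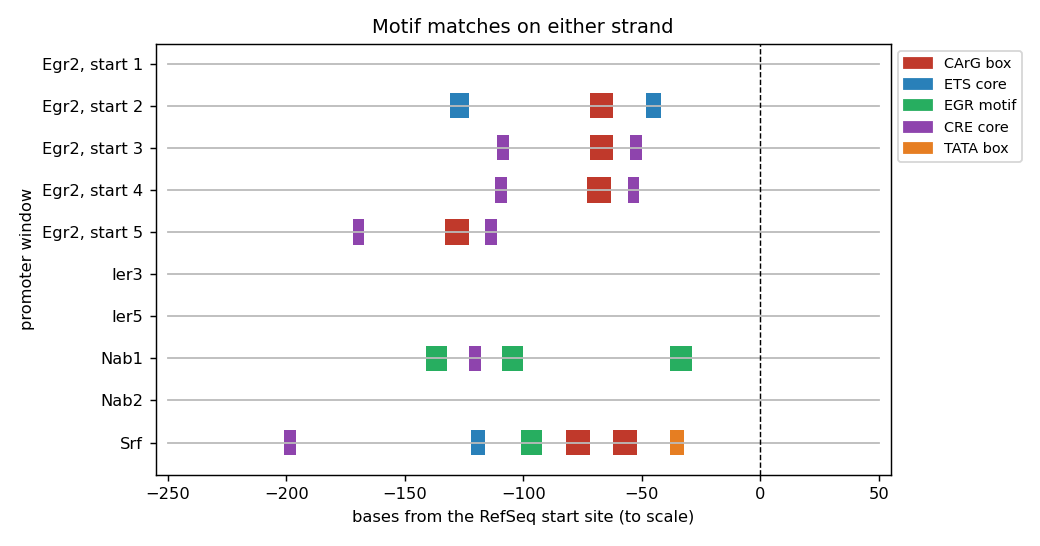
Motif matches on either strand in the promoter windows of the 6 matched genes, in bases from the RefSeq start site at 0, with 1 row for each start site and bars to scale. CArG boxes are seen at Srf, which has 2, and at 4 of the 5 Egr2 start sites, and EGR motifs at Nab1 and Srf.

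Egr1, which encodes the best known factor of the family, stood at 11.6 and 12.9 FPKM under overexpression, 47.4 and 43.7 under knockdown, and 10.5 and 11.9 in control cells. Both knockdown libraries lay far above the other 4, and the overexpression range overlapped that of the controls. The ratio of the knockdown mean (45.5 ± 2.57 FPKM, SD, n = 2) to the control mean (11.2 ± 1.02 FPKM, SD, n = 2) was 4.07. On the log2(FPKM + 1) scale, which understates the change of low genes, the difference was 1.93 ± 0.08 (SE), the 4th highest of 10721 genes tested. Egr1 lies on chromosome 18 from 34859823 to 34864984 (GRCm38, plus strand).

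Egr3, known for its part in muscle spindle formation and in T cells, was much lower, at 1.58 and 1.55 FPKM under overexpression, 3.67 and 4.99 under knockdown, and 1.04 and 1.51 in control cells. The knockdown libraries were again the highest, and they differed from each other by more FPKM than the controls did, though not relative to their level. The knockdown mean was 3.40 times the control mean, and the log2(FPKM + 1) difference was 1.23 ± 0.14 (SE); with a pseudocount of 0.1 in place of 1 it was 1.70. Egr2, the regulator of myelination in Schwann cells, stood at 0.208 and 0.265 FPKM under overexpression, 0.699 and 0.826 under knockdown, and 0.121 and 0.211 in control cells. Its knockdown mean was 4.60 times the control mean, from values so low that its mean over the 6 libraries, 0.388 FPKM, missed the filter of 1 FPKM. Egr2 was the only one of the 9 genes that did not pass. The fourth family member, Egr4, was listed at 0 in all 6 libraries, and Wt1, which encodes a related zinc finger factor, was listed at 0 in all but overexpression 2, with 0.0195 FPKM.

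Ier3 encodes a stress-induced protein that prolongs ERK signalling and acts on cell survival. It stood at 29.5 and 26.7 FPKM under overexpression, 58.7 and 59.1 under knockdown, and 24.1 and 27.2 in control cells. The knockdown libraries were close to each other and 2.30 times the control mean, with a log2(FPKM + 1) difference of 1.17 ± 0.07 (SE). Ier2, which encodes a nuclear protein, stood at 29.4 and 31.0 FPKM under overexpression, 46.6 and 51.8 under knockdown, and 31.7 and 33.6 in control cells. It was 1.51 times the control mean under knockdown, and both overexpression libraries lay just below both controls. Ier5, whose human counterpart brings the phosphatase PP2A to the heat shock factor HSF1, stood at 13.0 and 11.1 FPKM under overexpression, 14.0 and 16.4 under knockdown, and 11.5 and 12.6 in control cells. Both knockdown libraries lay above the other 4, by a small margin over overexpression 1, and their mean was 1.26 times the control mean. Ier5l, a paralogue of Ier5 outside the 9 genes, had 16.2 and 16.3 FPKM under overexpression, 28.5 and 27.9 under knockdown, and 16.97 and 17.97 in control cells. Ier5l stands in the list of other immediate early genes described further on, which was drawn up with knockdown values known. Limma found a rise of 0.66 ± 0.05 under knockdown (log2, SE; adjusted p = 1.16e-04) and a difference of -0.10 ± 0.05 under overexpression (adjusted p = 0.392).

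Nab1 and Srf were nearly level, and Nab2 was somewhat lower in both treated groups. Nab1 stood at 16.4 and 15.1 FPKM under overexpression, 14.3 and 15.7 under knockdown, and 14.7 and 15.1 in control cells, so the knockdown libraries straddled the controls. Nab2 was at 6.59 and 7.47 FPKM under overexpression, 7.47 and 7.81 under knockdown, and 8.28 and 9.04 in control cells. Nab2 was thus lower in all 4 libraries of the treated groups than in either control, with a knockdown to control ratio of 0.883. Srf stood at 14.3 and 13.9 FPKM under overexpression, 12.6 and 13.2 under knockdown, and 13.4 in both control libraries. The Srf difference under knockdown was -0.05 ± 0.05 (SE, log2) and turned to 0.01 after scaling by the median log ratio and 0.03 after quantile normalization, so it had no settled direction.

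**Figure D2:**
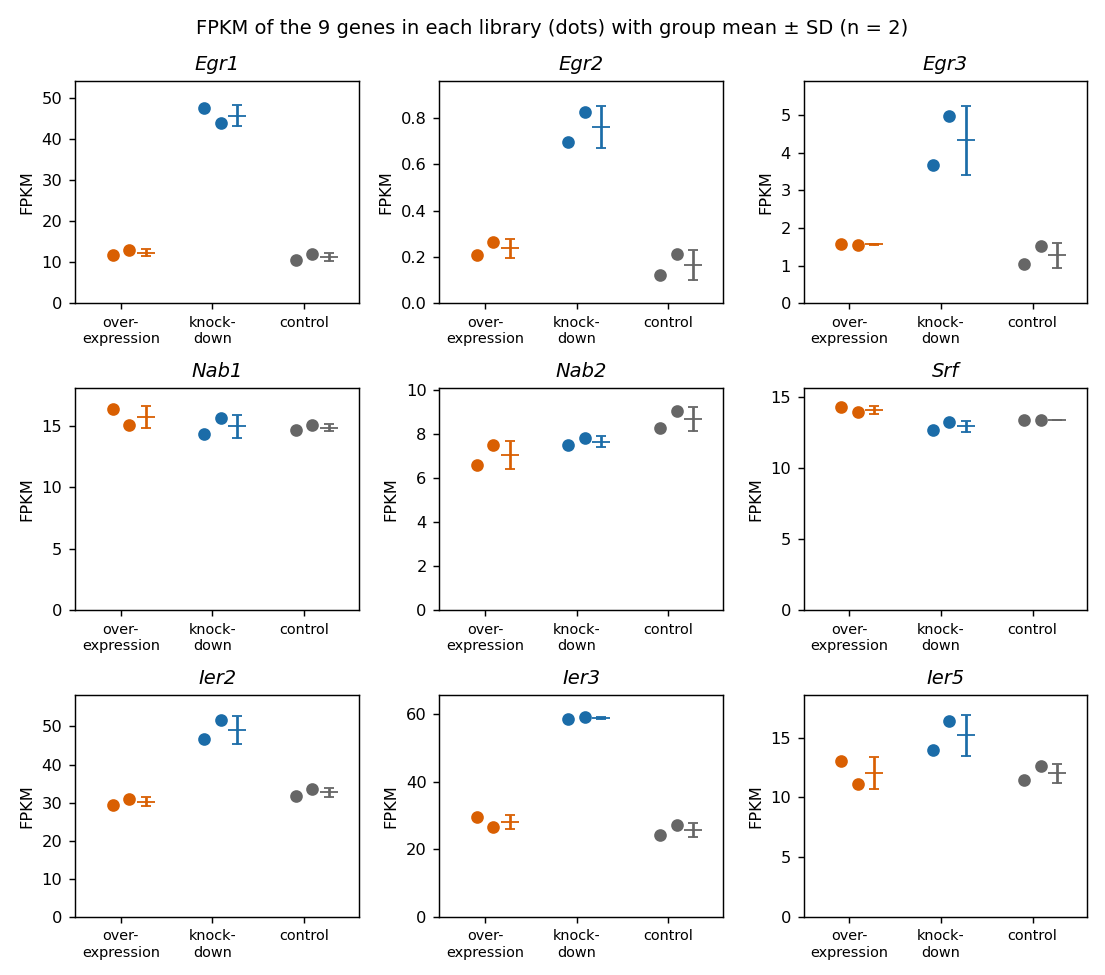
FPKM of each of the 9 genes in every library (dots) with the group mean and SD (n = 2) beside them, on axes that start at 0, for overexpression, knockdown and control. The knockdown dots lie above all others for the 3 Egr and the 3 Ier genes (from 43.7 FPKM for Egr1, 58.7 for Ier3). Nab1 and Srf stay near their control levels, and Nab2 lies below its controls in both treated groups.

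Of the 8 genes that passed the filter, 5 had both knockdown libraries above both control libraries, 2 had both below, and Nab1 overlapped. Over all tested genes the shares were 26.5% above and 47.9% below. As these values chose the genes, nothing is read from that difference. Egr2, untested, also had both knockdown libraries above. Under overexpression 3 of the 8 (Egr3, Nab1 and Srf) had both libraries above both controls, against 23.3% of all tested genes, and 2 (Nab2 and Ier2) had both below, against 26.2%. Both comparisons use the same control libraries.

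The test of overexpression against control found no change in these genes that passed the threshold. Of 10721 genes, limma with Benjamini-Hochberg adjustment called 1.54% at an adjusted p under 0.05, and 0 of the 8. At an unadjusted p under 0.05 there was 1 of the 8, against 17.1% of all tested genes. It was Nab2, which averaged 7.03 ± 0.623 FPKM under overexpression and 8.66 ± 0.539 in control cells (SD, n = 2 each). Its log2 fold change was -0.27 ± 0.08 (SE; limma, adjusted p = 0.127). Egr1 differed by 0.13 ± 0.08 (limma, adjusted p = 0.451), Egr3 by 0.18 ± 0.14 and Ier3 by 0.13 ± 0.07. The adjusted p of every one of the 8 genes stayed between 0.114 and 1 under the alternatives, except that Egr3 could not be tested with a filter at 5 FPKM. A p above the threshold does not show that levels were equal, since 2 libraries a group leave 3 residual degrees of freedom.

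**Figure D3:**
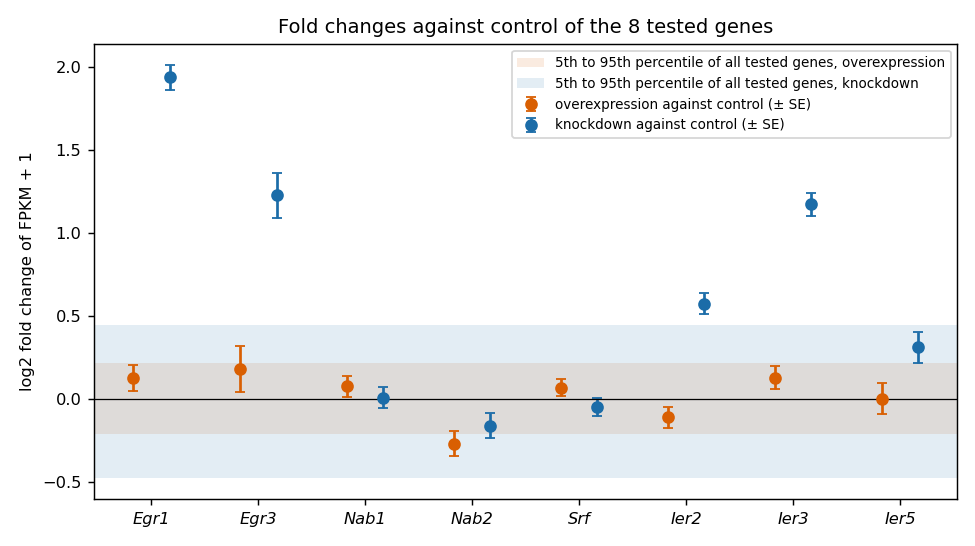
Log2 fold change of FPKM + 1 against control (dots, bars ± SE) of the 8 tested genes, overexpression left of knockdown, over bands that span the 5th to 95th percentile of all tested genes in each comparison. Overexpression values run from -0.27 for Nab2 to 0.18 for Egr3, and knockdown values of Egr1 (1.93), Egr3 (1.23), Ier3 (1.17) and Ier2 (0.57) lie above the knockdown band, which ends at 0.45.

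Because NAB proteins bind EGR proteins, the summed levels of both families were set side by side. Summed Egr1, Egr2 and Egr3 came to 13.4 and 14.8 FPKM under overexpression, 51.7 and 49.5 under knockdown, and 11.6 and 13.6 in control cells. Summed Nab1 and Nab2 came to 23.0 and 22.6 FPKM under overexpression, 21.8 and 23.5 under knockdown, and 23.0 and 24.1 in control cells. The Nab sum thus barely differed between groups, while Egr messages outnumbered Nab messages per length only under knockdown among these groups. The ratio of the Egr sum to the Nab sum was 0.584 and 0.652 under overexpression, 2.37 and 2.11 under knockdown, and 0.506 and 0.564 in control cells. Egr1 made up most of the Egr sum in every library.

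**Figure D4:**
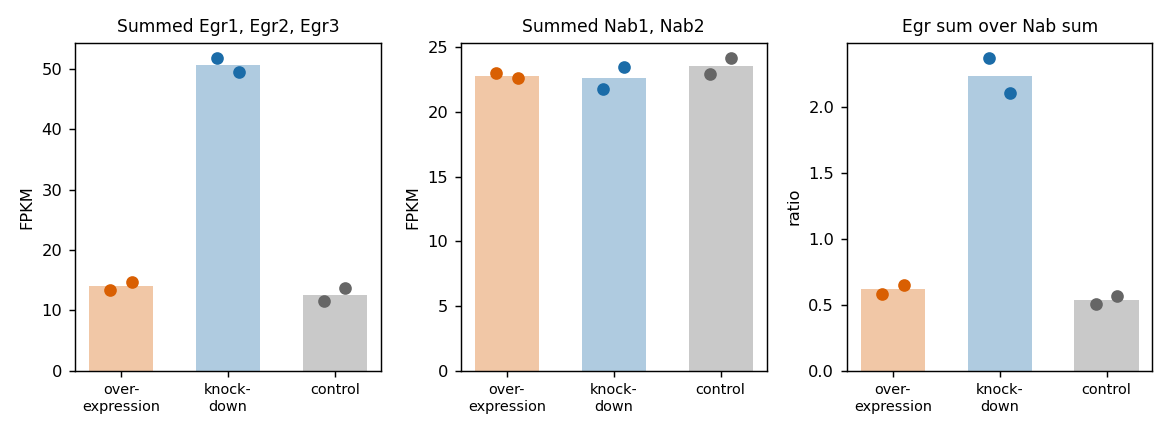
Summed FPKM of the 3 Egr genes, summed FPKM of the 2 Nab genes and their ratio, for each library (dots) and group mean (bars, from 0), with overexpression, knockdown and control from left to right. The ratio is above 2 in both knockdown libraries and 0.652 or less in the other 4.

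The order of levels, which FPKM allows because it is per length, changed with the group. In control cells Ier2 (32.7 FPKM on average) led, then Ier3 (25.6), Nab1 (14.9), Srf (13.4), Ier5 (12.02), Egr1 (11.2), Nab2 (8.66), Egr3 (1.27) and Egr2 (0.166). Neighbours in that order did not overlap, other than Ier5 and Egr1. Under overexpression Ier2 (30.2 FPKM) and Ier3 (28.1) overlapped at the top, and Egr1 (12.3) and Ier5 (12.1) overlapped below Srf. Under knockdown Ier3 (58.9 FPKM) led, Ier2 (49.2) and Egr1 (45.5) followed with overlapping ranges, and Ier5 (15.2) overlapped with Nab1 (15.0).

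The Egr and Ier genes, which stood higher under knockdown, also have few exons. As the genes were chosen by name, this describes the families, and nothing about knockdown is read from it. In GENCODE M21 the longest coding transcripts of Ier2 and Ier5 have 1 exon, and those of Egr1, Egr2, Egr3 and Ier3 have 2. Srf and Nab2 have 7 and Nab1 has 8. Of the tested genes with an annotated coding transcript, 5.91% have 1 or 2 exons, and the median is 9. The 6 Egr and Ier genes span 1240 bases (Ier3) to 6714 bases (Egr2), against a median of 23786.5 bases over tested genes. Nab2 (7651 bases) and Srf (7847) were a little longer and Nab1 (43386) much longer, while 23.9% of tested genes span under 10 kb. ATTTA, the core of the AU-rich elements that shorten the life of messages, did not separate the 6 Egr and Ier genes from the others. It occurred 8.16 times per kb of 3′ UTR in Ier3, 3.99 in Nab2, 3.12 in Nab1, 2.65 in Egr3, 2.5 in Egr2, 1.64 in Egr1, 1.33 in Srf, 0.933 in Ier5 and not at all in Ier2, against a median of 1.203 per kb over tested genes.

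Nab2 and Srf share ground with other genes. Nab2 (chromosome 10, 127660918 to 127668568, minus strand) overlaps Stat6 on the plus strand by 40 bases at its 3′ end. It also overlaps Nemp1 by 1668 bases at its 5′ end, and Nemp1 stands in the table under its older symbol Tmem194. Stat6 had 8.10 and 8.09 FPKM under overexpression, 7.02 and 8.05 under knockdown, and 6.71 and 6.68 in control cells. Tmem194 had 5.08 and 4.22 FPKM under overexpression, 5.97 and 5.62 under knockdown, and 4.248 and 4.004 in control cells. Srf lies inside the long noncoding gene Gm26904 on the opposite strand. How strand was treated when fragments were counted is unknown here, and reads of the shared stretches cannot be told apart between the genes.

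By root mean square difference over the 6 libraries, on the log2(FPKM + 1) scale centred on the control mean, the genes most like Egr1 were Cd68 (0.151), Zglp1 (0.201), Slc5a5 (0.242), Rnf225 (0.270) and Hist1h3i (0.278). Cd68, which encodes a protein of the lysosomal membrane known from macrophages, had 0.53 and 0.57 FPKM under overexpression, 3.31 and 4.31 under knockdown, and 0.35 and 0.40 in control cells. All 5 averaged under 1 FPKM in control cells and passed the filter through their knockdown values. Their likeness to Egr1 rests on the pseudocount, since the knockdown mean was 10.2 times the control mean for Cd68, 15.8 times for Zglp1, 8.32 times for Slc5a5 and 6.12 times for Rnf225. Hist1h3i has near-identical copies and was listed at 0 in control 1, so its values are uncertain. Ier3 was closest to Junb (0.0487), an AP-1 subunit, N4bp2l1 (0.0793) and the clock gene Per1 (0.0815). Egr3 was closest to Rnd1 (0.124), Per1 (0.129) and Junb (0.132). Ier2 was closest to Zc3h6 (0.0622), Pla2g4b (0.0640) and Stk40 (0.0650), and Ier5 to Armcx5 (0.0388), Rab11fip5 (0.0438) and Zbtb10 (0.0452). N4bp2l1 and Pla2g4b also averaged under 1 FPKM in control cells (0.790 and 0.849) and passed the filter through their knockdown values. Their likeness rests on the pseudocount too. The knockdown mean was 3.69 times the control mean for N4bp2l1, against 2.30 for Ier3, and 2.26 times for Pla2g4b, against 1.51 for Ier2. Nab1 and Srf were closest to Brpf3 (0.0161) and Tmem57 (0.0119), as flat genes resemble many others. Nab2 was closest to Galt (0.0245), which was also lower in both treated groups than in control cells.

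Other immediate early genes were mostly higher under knockdown. This list and the ones after it were drawn up with values under knockdown known, so their counts describe these libraries. Of 50 listed, all had a row and 42 were tested. Limma called 31 higher and 1 lower, against 14.8% and 31.3% of all tested genes, with a list median of 0.50 and a median of -0.07 over all tested genes (log2). Junb rose by 1.14 ± 0.05 (SE; limma, adjusted p = 2.42e-05) and stood at 81.9 and 85.8 FPKM under knockdown, against 37.0 and 38.2 in control cells. Per1 rose by 1.23 ± 0.07, Phlda1, a pleckstrin-homology protein gene, by 1.15 ± 0.09 and Gadd45b, a growth arrest and stress gene, by 1.14 ± 0.08. All 5 tested Dusp genes, which encode phosphatases that switch off MAP kinases, and 4 of 6 tested Fos and Jun genes were among those higher. The call of Dusp5 was lost under 3 alternatives (limma, highest adjusted p = 0.0813) and that of Fosb without control 1 (limma, adjusted p = 0.0594), both named after their values were seen. The gene called lower was Jund (-0.20), picked out after its value was seen, and its call was lost after quantile normalization (limma, adjusted p = 0.624).

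Under overexpression limma called 0 of these 42 immediate early genes, against 0.690% of all tested genes higher and 0.849% lower, and 15 were at an unadjusted p under 0.05, against 17.1% of all tested genes. Those with the smallest p were Phlda1 (0.37 ± 0.09; limma, adjusted p = 0.0750), Cyr61 (0.36 ± 0.09), Rhob (0.26 ± 0.07) and Atf3 (0.38 ± 0.11). Phlda1 stood at 46.0 and 43.1 FPKM under overexpression, 75.8 and 78.3 under knockdown, and 30.9 and 37.8 in control cells. The list median was 0.11 under overexpression, and that of all tested genes was -0.003 (log2).

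The actin genes that SRF drives with MRTF were called about as often as all tested genes under knockdown. Of 20 tested, 3 were called higher (14.8% of all tested genes), 7 lower (31.3% of all tested genes) and 10 not called, with list medians of 0.06 under overexpression and -0.11 under knockdown (log2). Cnn2, the calponin 2 gene, rose in either group, standing at 17.5 and 17.8 FPKM in overexpressing cells, 18.8 and 17.7 in knockdown cells, and 10.6 and 10.4 in control cells. The overexpression difference was 0.69 ± 0.05 (SE, log2; limma, adjusted p = 0.00164) and that of knockdown was 0.74 ± 0.05 (limma, adjusted p = 9.57e-05), against the same control libraries. Filip1l fell by 0.60 ± 0.09 under knockdown, Actb, the cytoplasmic actin gene, by 0.38 ± 0.06, Flna, the filamin A gene, by 0.37 ± 0.05 and Cfl1, the cofilin gene, by 0.30 ± 0.05. The other genes called higher under knockdown, Pdlim5 and Tln1, were named after their values were seen, and the Tln1 call was lost under 6 alternatives. Tpm1, a tropomyosin gene, was the other gene called under overexpression (0.36 ± 0.06; limma, adjusted p = 0.0222), and that call was lost without a filter, with the replicate block and without each of the 4 libraries of that comparison in turn (highest adjusted p = 0.197).

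Upstream, Elk3, an ETS-family SRF cofactor gene, rose by 0.46 ± 0.07 under knockdown, with 13.3 and 12.02 FPKM against 8.59 and 9.26 in control cells (limma, adjusted p = 9.62e-04). It was the only one of 6 tested SRF cofactor genes called by limma in either comparison, and the list medians were 0.10 under overexpression and 0.02 under knockdown (log2). Over all tested genes 14.8% were called higher and 31.3% lower under knockdown, and 1.54% were called under overexpression. Of 21 ERK cascade genes, 9 were called lower and 0 higher under knockdown, against 31.3% lower over all tested genes. Ptpn11, the phosphatase SHP2 that passes receptor signals to RAS, fell by 0.39 ± 0.05 under knockdown (SE, log2; limma, adjusted p = 4.46e-04). After quantile normalization 4 ERK cascade genes were lower and 1 higher, against 2292 lower and 2003 higher of 10721 tested genes. Under overexpression limma called 0 of 21, with 4 at an unadjusted p under 0.05, against 17.1% of all tested genes.

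Genes described elsewhere as EGR targets were called in both directions. Of 16 tested, 6 were called higher and 6 lower under knockdown, against 14.8% and 31.3% of all tested genes, and the list median was -0.06 (log2) in either comparison. Gdf15, a stress cytokine gene, rose by 1.12 ± 0.11, to 46.8 and 37.4 FPKM under knockdown, against 17.1 and 20.5 in control cells. F3, the tissue factor gene, rose by 0.81 ± 0.10. Fn1, the fibronectin gene, fell by 0.63 ± 0.05, Syn1, the synapsin I gene, by 0.61 ± 0.06 and Pmp22, a peripheral myelin gene, by 0.53 ± 0.05. Under overexpression 10 of the 16 were at an unadjusted p under 0.05, against 17.1% of all tested genes. F3 was the only one called by limma (0.63 ± 0.10, adjusted p = 0.0259), and the call was lost under 5 alternatives, among them without control 1 (adjusted p up to 0.178).

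Genes for partners of the NAB and IER proteins were more often called lower than higher under knockdown. NAB2 recruits the NuRD complex, and of 13 NuRD genes 8 were called lower and 0 higher, against 31.3% and 14.8% over all tested genes. Hdac2, a histone deacetylase gene, fell by 0.58 ± 0.06, with 62.8 and 57.8 FPKM against 90.1 and 90.8 in control cells. After quantile normalization 3 NuRD genes were lower and 1 higher, against 2292 lower and 2003 higher of 10721 tested genes. The list median was -0.23 under knockdown and -0.04 under overexpression (log2). Of 13 genes in the list of HSF1 and PP2A subunits, which also holds Cdc25b, 6 were lower and 1 higher, against 31.3% and 14.8% of all tested genes. Those lower were led by the catalytic subunit genes Ppp2cb (-0.49 ± 0.05) and Ppp2ca (-0.35 ± 0.04). The one higher was Ppp2r2a, named after its value was seen, and with control 1 left out it missed the threshold (limma, adjusted p = 0.0940). The list median was -0.19 under knockdown and -0.04 under overexpression (log2). Quantile normalization left 4 of this list lower and 2 higher, against the same 2292 and 2003 of 10721 tested genes. Under overexpression limma called 0 of either list, against 1.54% of all tested genes. At an unadjusted p under 0.05 there were 0 and 1, against 17.1% of all tested genes. Pim1, the kinase gene whose name lncPim1 carries, had 23.5 and 24.1 FPKM under overexpression, 24.4 and 23.1 under knockdown, and 16.2 and 18.8 in control cells.

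**Figure D5:**
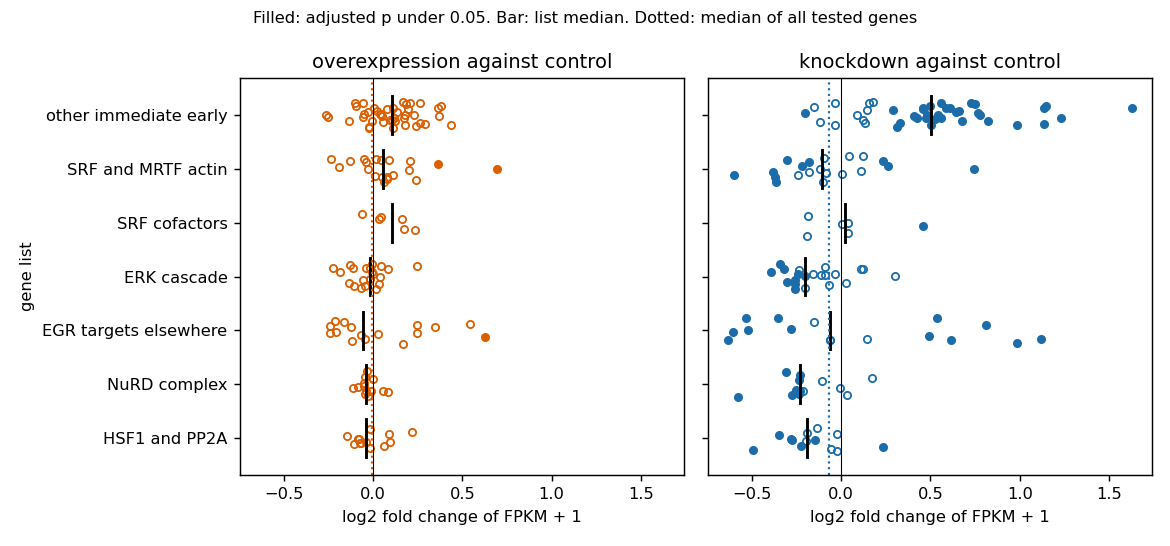
Log2 fold change of FPKM + 1 against control for each tested gene of the 7 lists, overexpression on the left and knockdown on the right, with filled dots at an adjusted p under 0.05, black bars at list medians and dotted lines at the median of all tested genes. Immediate early genes sit to the right under knockdown, with a median of 0.50, and the ERK cascade and NuRD lists have medians of -0.20 and -0.23.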

How the data were processed

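The authors deposited FPKM values per gene symbol for 6 libraries. Build mm10 and the tools HISAT2, Cufflinks, Trimmomatic, DESeq and HTSeq come from the submitters' processing notes. Versions, annotation and strandedness were not given in the sources used here. Each FPKM divides by the library's total, so abundant genes that change shift all others. Summed FPKM was 272528 to 305463 per library. Absolute depth is unknown, and steps between low values gave relative depths of 0.884 to 1.08 times that of control 1.

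The 10721 genes that averaged 1 FPKM or more over the 6 libraries were fitted as log2(FPKM + 1) with limma 3.58.1 in R 4.3.3, with a mean for each group, moderation along an expression trend and Benjamini-Hochberg adjustment over all of them, and called at an adjusted p under 0.05. The fit was tested on simulated data. The 9 genes, and the gene lists, were chosen with earlier results of these data known. Besides the 9 genes, up to 4 genes of each list by smallest p in each comparison, family members, overlapping genes and the nearest patterns are named. A gene that this rule picks in the ERK cascade list is not reported here. Alternatives changed the pseudocount, filter, scaling, moderation, libraries fitted and replicate block. Gene positions and exons are from GENCODE M21, promoters from RefSeq GRCm38.p6.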

Additional observations from a re-analysis of the deposited data

Results flagged for a closer look

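Ier2 and Srf had overexpression and knockdown libraries on opposite sides of the controls, though neither gene passed the test under overexpression. Over all tested genes, 23.3% had both overexpression libraries above both controls and 26.2% below. Under knockdown the shares were 26.5% and 47.9%, and the share of genes on opposite sides was not counted. For Ier2 both knockdown libraries lay above both controls and both overexpression libraries below, and the log2 fold change against control was 0.68 higher under knockdown than under overexpression. For Srf both knockdown libraries lay below and both overexpression libraries above, a difference of -0.12, although the knockdown direction of Srf turned after scaling by the median log ratio or quantile normalization. Neither difference was tested, since values under knockdown chose the genes.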

How the results depend on the processing

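Limma called 0 of the tested genes among the 9 under overexpression in every alternative run. Direction under overexpression held in all of them except for Ier5, whose difference of 0.002 became -0.06 without control 1 and -0.10 without overexpression 1, and reached 0.11 without overexpression 2. Under knockdown Egr1 ranged from 1.85 to 2.05 over the alternatives, Ier3 from 1.09 to 1.32, Egr3 from 1.05 to 1.70 and Ier2 from 0.50 to 0.73, while Nab1 and Srf took either sign. Groups that did not overlap under knockdown numbered 7 of the 8 tested, with 6 after median log ratio scaling and 7 after quantile normalization. Over all tested genes 26.5% lay above and 47.9% below without such scaling, and the shares after scaling were not counted.

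All genes called under overexpression numbered 165, or 9 without a filter, 97 without the expression trend, 66 with the replicate block, and 13 to 176 with 1 library left out, where a group left with 1 library is assumed to vary like the others. Under knockdown 1590 were higher and 3358 lower, or 2044 and 2562 after median log ratio scaling and 2003 and 2292 after quantile normalization. Equal replicate numbers did not deviate together (correlations of -0.117, 0.00692 and -0.211), and the labels do not pair them, so they are treated as sharing only a number. With the overexpression numbers crossed, a choice made after seeing the data, 258 were called. Other immediate early genes called higher under knockdown numbered 25 to 32. Egr2 stayed under 1 FPKM in every library, and whether depth limits its values was not tested, as absolute depth is unknown.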
